A study of Homo sapiens with 16 samples.

Results

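The 61 protein-coding olfactory receptor (OR) genes of human chromosome 1 were examined for peaks of HDGF and of INTS13. They were picked by symbol alone, as OR followed by a number, 1 or 2 letters and a number, from a RefSeq gene table of GRCh38.p14 with 19866 protein-coding genes on the main chromosome sequences. The rule used no peak, but this family was chosen for description with earlier results of these data known. An OR gene with a peak in the gene or within 1 kb of either end, by at least 1 base, is said here to have a window peak. Whether these genes were silent in the cells used was not tested, since no expression data were analysed here.

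Chromatin immunoprecipitation with sequencing (ChIP-seq) was done in HEK293T, a transformed cell line from human embryonic kidney, to ask whether INTS13 moves on the genome in starvation or when HDGF is depleted. INTS13 is a subunit of Integrator, a complex that cleaves nascent RNA and acts at paused RNA polymerase II, and HDGF binds chromatin through its PWWP domain. HDGF was mapped in cells starved of glucose for 24 h and in cells given a control depletion, with an antibody from Proteintech in both. INTS13 was mapped in cells depleted of HDGF for 72 h with a pool of small interfering RNAs and in cells given a control depletion, both with an antibody from Bethyl, and in cells starved of glucose for 24 h with an antibody from Proteintech. Antibody and treatment cannot be told apart for INTS13 in starvation. No depletion is labelled for the starved cells, so starvation and the control depletion cannot be told apart when starved cells are set against control. Each of these 5 groups had 2 labelled replicates and a single peak list, so no value has a replicate error and no test between conditions was possible. How far HDGF fell was not measured in the data used here.

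OR genes encode G protein-coupled receptors that olfactory sensory neurons use to detect odorants. They lie in tandem clusters, often in AT-rich DNA, and the coding sequence of each is usually a single exon. A mature olfactory neuron expresses only 1 of its many OR alleles, while the others are held in heterochromatin. In mice the factors LHX2, EBF and LDB1 bind enhancers of OR genes, and ADCY3 and the G protein subunit GNAL carry the signal of a bound receptor.

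The OR genes fell into 3 clusters when neighbours less than 1 Mb apart were joined. The first, OR4F5 to OR4F16 at chr1:65419-720101, held 3 genes near the end of the short arm. The second, OR10T2 to OR10J5 at chr1:158398522-159536007 on the long arm, held 15 genes. The third, OR2B11 to OR14I1 at chr1:247449118-248702766 near the end of the long arm, held 43 genes. Most OR genes were short, with a median length of 6.98 kb against 24.5 kb for the 1988 other protein-coding genes of the chromosome. OR10J5 and OR2G3 were the shortest, both listed at 930 bp, OR2L13 was the longest, at 164 kb, and 17 of the 61 were at most 1 kb long.

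RefSeq promoters of GRCh38.p14, from 250 bases before to 50 after the start site, were at hand for 51 of the 61 genes. Of the sequences below, 3 belong to the OR genes that had a window peak, OR6P1, OR6N1 and OR6N2. OR10T2 is shown because a peak lay just outside its window, and OR2L13 because its promoter had the highest GC content of the 51. The 300 bases are written 5′ to 3′ on the strand of the gene, and capitals mark CG dinucleotides (CpG).
OR6P1, chr1:158570531-158570830, minus strand: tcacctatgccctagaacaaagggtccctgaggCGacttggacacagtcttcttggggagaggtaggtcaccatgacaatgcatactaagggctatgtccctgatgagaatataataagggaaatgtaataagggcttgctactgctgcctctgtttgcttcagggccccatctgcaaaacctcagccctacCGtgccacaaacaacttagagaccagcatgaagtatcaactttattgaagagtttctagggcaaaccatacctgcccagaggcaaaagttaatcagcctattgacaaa
OR6N1, chr1:158772146-158772445, minus strand: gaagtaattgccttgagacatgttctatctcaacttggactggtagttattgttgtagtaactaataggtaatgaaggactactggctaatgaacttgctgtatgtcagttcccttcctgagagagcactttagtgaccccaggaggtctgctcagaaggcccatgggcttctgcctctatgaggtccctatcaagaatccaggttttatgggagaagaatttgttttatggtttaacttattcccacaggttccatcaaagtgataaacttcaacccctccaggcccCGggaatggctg
OR6N2, chr1:158781155-158781454, minus strand: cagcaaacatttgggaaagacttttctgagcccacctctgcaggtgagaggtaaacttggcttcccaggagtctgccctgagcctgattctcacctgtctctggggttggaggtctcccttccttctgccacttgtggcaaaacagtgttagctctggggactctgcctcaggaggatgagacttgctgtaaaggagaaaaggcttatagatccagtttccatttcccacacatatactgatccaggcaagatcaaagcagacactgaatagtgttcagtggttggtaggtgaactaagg
OR10T2, chr1:158399417-158399716, minus strand: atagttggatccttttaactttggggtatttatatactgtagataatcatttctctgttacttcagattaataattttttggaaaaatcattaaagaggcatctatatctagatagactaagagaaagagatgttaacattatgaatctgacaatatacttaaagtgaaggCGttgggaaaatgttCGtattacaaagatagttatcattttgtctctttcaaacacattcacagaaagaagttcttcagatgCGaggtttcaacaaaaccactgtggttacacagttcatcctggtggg
OR2L13, chr1:247936927-247937226, plus strand: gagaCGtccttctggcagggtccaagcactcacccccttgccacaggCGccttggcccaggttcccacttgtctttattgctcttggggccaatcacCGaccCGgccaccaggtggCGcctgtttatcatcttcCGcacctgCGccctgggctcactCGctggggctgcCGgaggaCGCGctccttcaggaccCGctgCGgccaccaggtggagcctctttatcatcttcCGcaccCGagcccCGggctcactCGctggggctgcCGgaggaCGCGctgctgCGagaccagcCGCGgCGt
The promoters of OR6P1, OR6N1, OR6N2 and OR10T2 held 2, 1, 0 and 3 CpG, while that of OR2L13 held 24. Their GC content was 46.7%, 44.7%, 49.3% and 32.3%, against 67.3% for OR2L13. The OR2L13 promoter is the first of 2 listed for that gene.

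The longest stretch of OR genes could not be read apart from its surroundings. None of the 5 lists, as used here, had a peak on chromosome 1 past position 245249689, and all 43 genes of the third cluster lie beyond it. The last peaks ended at 245121852 for HDGF in starvation, 245121907 for HDGF in control, 245249689 for INTS13 in HDGF depletion, 245116255 for INTS13 in starvation and 245120902 for INTS13 in control. In the depletion list a single peak lay 125968 bp past the one before it. Without that peak the 5 lists ended within 7266 bp of each other.

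Peaks were dense up to that point. The last 1 Mb before position 245249689 held 373, 515, 564, 100 and 330 peaks in the same order of lists. The stretch after it held 61 protein-coding genes, 43 OR genes and 18 others, among them SMYD3, a lysine methyltransferase gene, AHCTF1, which encodes a nuclear pore protein, and NLRP3, an inflammasome sensor gene. All 18 others were without a peak in every list, as were the 43 OR genes. The first of the OR genes, OR2B11, began 2199 to 2333 kb after the last peak of a list. Among all stretches without a peak in any list, 99 held at least 10 protein-coding genes, and this one was the sixth by the number of genes inside, level with a stretch of chromosome 15. The first by that number, past the last peak of chromosome 3, held 78 genes and 0 OR genes. Whether mapping, filtering, an absence of the proteins or another cause left the chromosome 1 stretch empty was not tested. The values below are therefore given for the 18 OR genes before it as well as for all 61.

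**Figure D1:**
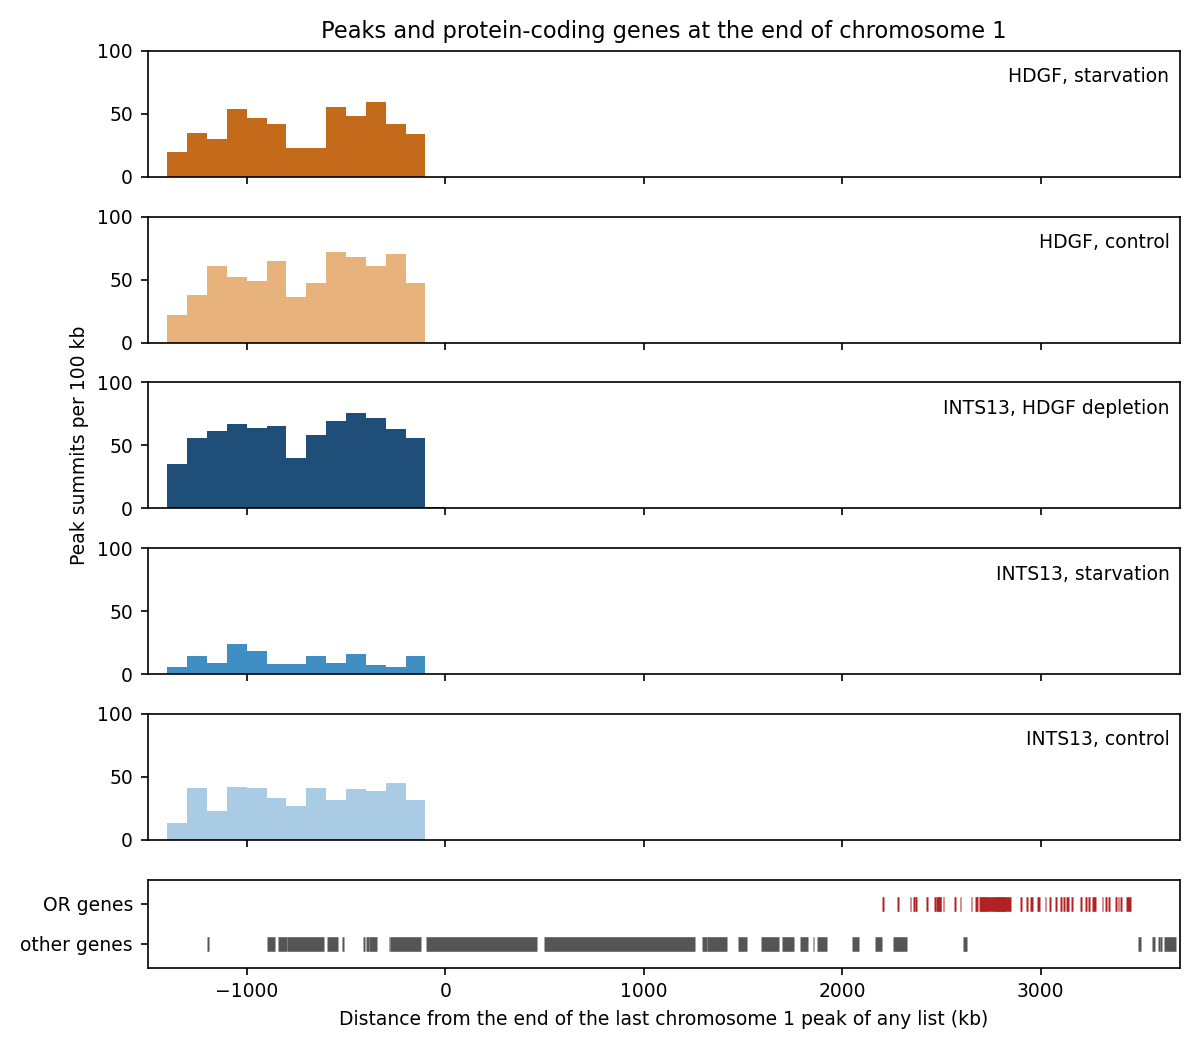
Peak summits per 100 kb in the 5 lists, and the positions of OR genes (red) and other protein-coding genes (grey), against distance in kb from the end of the last chromosome 1 peak of any list. All 5 lists stop at or before 0 on the axis, and the 43 OR genes of the third cluster lie at least 2199 kb past it, with 18 other genes in the same empty stretch.

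OR genes had few window peaks. In HDGF starvation 0 of 61 had one, which allows a share of up to 4.92%, against 64.4% of the other protein-coding genes of chromosome 1. In HDGF control the count was also 0, against 68.1% of the other genes. In INTS13 after HDGF depletion 3 of 61 had a window peak (4.92%, exact 95% interval 1.03 to 13.7%), against 72.9% of the others. In INTS13 starvation and INTS13 control the counts were 0, against 25.4% and 34.8% of the others. Intervals and limits cover counting error only, and neighbouring OR genes are not independent of each other. In both HDGF lists, then, no OR gene had a window peak, while most other genes of the chromosome had one. Of the 61, 43 lie in the empty stretch, where no gene had a window peak, so the limit of 4.92% rests largely on that stretch.

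Before the last peak, 3 of 18 OR genes had a window peak in INTS13 after HDGF depletion (16.7%, exact 95% interval 3.58 to 41.4%), against 1450 of 1970 other genes (73.6%, 71.6 to 75.5%). In the other 4 lists 0 of 18 had one, which allows up to 16.7% as 3 counts of 18 (18.5% by the exact 95% interval). The shares of other genes before the last peak were 65.0% in HDGF starvation, 68.7% in HDGF control, 25.6% in INTS13 starvation and 35.1% in INTS13 control. The limit of 16.7% lay below the interval of the other genes in each of these 4 lists, by the least in INTS13 starvation, where that interval began at 23.7%.

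**Figure D2:**
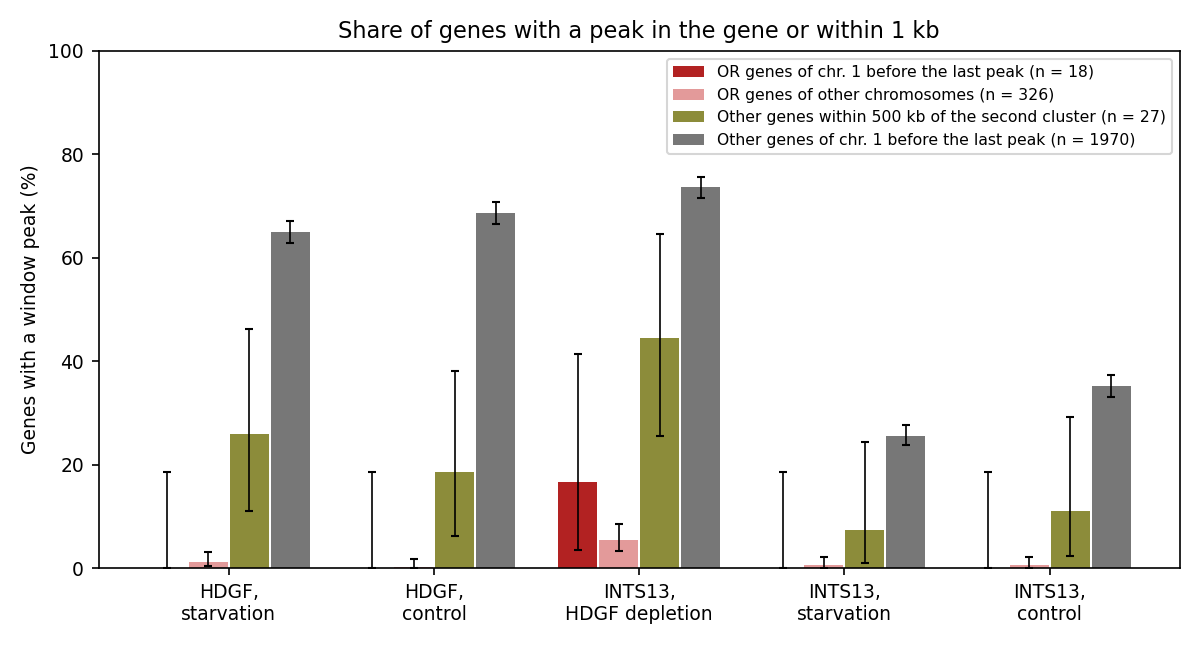
Share of genes with a window peak (%) in each list for the 18 OR genes before the last peak, the 326 OR genes of other chromosomes, the 27 other genes within 500 kb of the second cluster and the 1970 other genes of chromosome 1 before the last peak. Bars are shares and lines are exact 95% binomial intervals; OR genes of chromosome 1 had a bar in INTS13 after HDGF depletion only.

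The share of genes with a window peak moved with gene length: in INTS13 after HDGF depletion 27.5% of the other genes of at most 1 kb had a window peak, against 89.3% of those over 50 kb. Averaged over length classes with the weights of the 18 OR genes, the other genes before the last peak had a window peak in 52.8% of cases in HDGF starvation (95% interval 48.0 to 57.5%) and 51.8% in HDGF control (46.7 to 56.9%). For INTS13 the averages were 54.4% after HDGF depletion (49.4 to 59.4%), 15.3% in starvation (12.1 to 18.6%) and 21.3% in control (17.4 to 25.2%). After length matching, the limit of 16.7% lay below the intervals of the other genes in both HDGF lists, and the upper bound of 41.4% lay below it in the depletion list. In INTS13 starvation the limit lay inside the interval, so a difference was not detectable with 18 genes. In INTS13 control the interval began at 17.4%, which is above the limit by less than 1 gene in 18. The exact upper bound of 18.5% for 0 of 18 lay inside that interval, so a difference was not clear there either. The call for INTS13 control changes with the genes compared: length-matched genes of the long arm, where 15 of the 18 OR genes lie, had 27.5% (22 to 33%), clear of the limit, while in INTS13 starvation they had 20.0% (15.1 to 25%).

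Peaks were also few when counted by themselves. The windows of the 18 OR genes span 268 kb. They held 0, 0, 3, 0 and 0 summits in HDGF starvation, HDGF control, INTS13 HDGF depletion, INTS13 starvation and INTS13 control. At the average density of chromosome 1 from its start to the last peak of any list, they would hold 19.9, 32.7, 34.4, 6.02 and 14.

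The 3 called genes, all of the second cluster, rested on 3 peaks of INTS13 after HDGF depletion. The authors' fold over background and −log10 q describe each of them, and reads at the summit follow from the fold and the list's background of 4.20 reads. The peak of OR6P1, chr1:158562704-158562972, had a fold of 3.08, a −log10 q of 2.40 and 15 reads. OR6N1 and OR6N2 share a peak, chr1:158776957-158777270, with a fold of 3.66, a −log10 q of 3.66 and 18 reads. OR6N1 had a further peak, chr1:158790551-158790755, with the same fold, −log10 q and reads as that of OR6P1. In the whole list 58.9% of peaks had a −log10 q above 2.40 and 17.8% one above 3.66, so the shared peak lay in the upper part of its list and the other 2 below the middle.

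None of the 3 peaks reached a promoter printed above. The summit at OR6P1 lay 7803 bp downstream of the start site. The shared summit lay 4090 bp downstream of the start site of OR6N2 and 4919 bp upstream of the start site listed for OR6N1, and the further one 18538 bp upstream of it. The gene model of OR6N1 spans 76.2 kb and covers OR6N2, so OR6N1 and OR6N2 are not separate observations and the summits can lie upstream of the listed start while inside the model. No OR gene had a summit within 1 kb of an end of the gene in any list. Of other genes, 40.9% had one in HDGF starvation, 40.9% in HDGF control and 41.5% in INTS13 after HDGF depletion. The shares were 15.9% in INTS13 starvation and 16.6% in INTS13 control. Of the OR genes, 43 lie in the empty stretch, and 0 of the 18 before it allows up to 16.7% (exact upper bound 18.5%). The shares in INTS13 starvation and INTS13 control lay below 18.5%, so a difference was not detectable there. Matched for length to all OR genes, other genes had 39.4%, 35.8%, 38.1%, 11.7% and 14.1% in the same order of lists.

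Just outside the window, OR10T2 had a peak of INTS13 in control at chr1:158396821-158397127, 1395 bp from the gene, with a fold of 3.24 and a −log10 q of 3.68. It was the nearest peak to any uncalled OR gene in any list. With a window of 2500 bp OR10T2 would be called.

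Between conditions, OR genes gained window peaks in the depletion comparison and in neither starvation comparison; whether the comparisons differ was not tested. Between HDGF starvation and HDGF control, 0 OR genes gained, kept or lost a window peak, while 9.71% of the other genes gained one, 54.7% kept one and 13.3% lost one. Between INTS13 after HDGF depletion and INTS13 control, 3 OR genes gained a window peak, 0 kept and 0 lost one, while 38.7% of the others gained one, 34.3% kept one and 0.553% lost one. Between INTS13 starvation and INTS13 control, 0 gained, kept or lost one, while 5.58% of the others gained one, 19.8% kept one and 15.0% lost one. Before the last peak, 16.7% of 18 OR genes gained one with HDGF depletion (exact 95% interval 3.58 to 41.4%), against 39% of 1970 other genes. The interval holds the share of the other genes, so a difference in gain was not detectable with 18 genes. In both starvation comparisons 0 of 18 gained one, which allows up to 16.7%. Of the other genes before the last peak, 9.80% gained one for HDGF and 5.63% for INTS13, so a difference was not detectable there either.

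The depletion list was longer and had a lower background than its control. It held 105994 peaks at a background of 4.20 reads, against 31233 peaks at 6.40 reads in INTS13 control. In lists cut to about equal length by −log10 p, 18893 peaks of the depletion list remained, with a fold of at least 3.85, and 0 OR genes had a window peak. The part of the background in the 3 gained genes was not tested.

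The second cluster was poor in peaks as a region, not only at its OR genes. Its 1137486 bp held 0 peaks in HDGF starvation, 0 in HDGF control, 11 in INTS13 after HDGF depletion, 0 in INTS13 starvation and 2 in INTS13 control. In summits per Mb the cluster had 0 for HDGF in starvation, against 165 in the 3 Mb before it and 62.7 in the 3 Mb after it. For HDGF in control it had 0, against 215 before and 131 after. INTS13 after HDGF depletion had 9.67 per Mb in the cluster, against 237 before and 131 after. INTS13 had 0 per Mb in starvation, against 23.7 before and 3.67 after, and 1.76 in control, against 26.0 before and 16 after. The cluster was sparser than both flanks in every list.

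The 11 depletion peaks in the cluster had folds of 2.89 to 3.66, with a median of 3.08 against 3.27 in the whole list. Of these, 3 lay in windows of OR genes, 5 in windows of other genes and 3 in neither. The 5 were at AIM2, a cytosolic DNA sensor gene of the PYHIN family, and at CADM3, a cell adhesion gene. The 2 control peaks lay at CADM3, with a fold of 2.57, and 38336 bp from OR10J1, with a fold of 3.11, and 0 of these 2 shared a base with a depletion peak. In the cluster and 500 kb on each side, 1 of 10 control peaks overlapped one of the 66 depletion peaks.

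**Figure D3:**
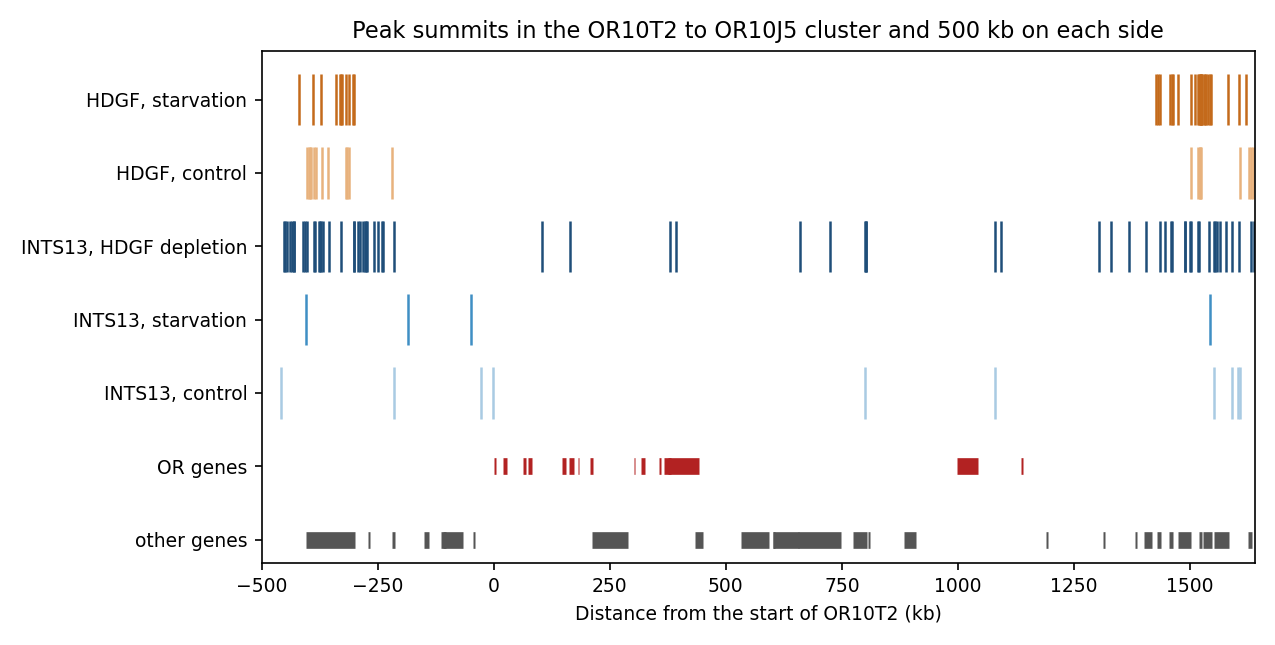
Peak summits (vertical lines) of the 5 lists in the second OR cluster and 500 kb on each side, above the OR genes (red) and other protein-coding genes (grey); the axis gives distance in kb from the start of OR10T2. HDGF has 0 summits between the first and last OR gene in both lists, INTS13 after HDGF depletion has 11 and INTS13 control 2.

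Other genes among and beside the OR genes of the second cluster were counted in the same way. Of the 9 other genes between OR10T2 and OR10J5, 0 had a window peak in HDGF starvation, 0 in HDGF control, 2 in INTS13 after HDGF depletion, 0 in INTS13 starvation and 1 in INTS13 control. Of the 27 other genes within 500 kb, which include those 9, the counts were 7, 5, 12, 2 and 3 in that order. In the depletion list the 15 OR genes of the cluster had window peaks in 20.0% of cases (exact 95% interval 4.33 to 48.1%), those 27 neighbours in 44.4% (25.5 to 64.7%) and the 9 genes in between in 22.2% (2.81 to 60%). These intervals overlap, so OR genes could not be set apart from their neighbours, and being an OR gene and lying in this region cannot be told apart.

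Distance to the nearest peak needs no window. For the 15 OR genes of the second cluster the median distance was 464 kb in HDGF starvation, 399 kb in HDGF control, 33.7 kb in INTS13 after HDGF depletion, 256 kb in INTS13 starvation and 163 kb in INTS13 control. For the other genes of chromosome 1 before the last peak the medians were 0, 0, 0, 78.9 and 23.3 kb. The nearest HDGF peak to any OR gene of the second cluster was 290 kb away in starvation and 219 kb away in control.

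**Figure D4:**
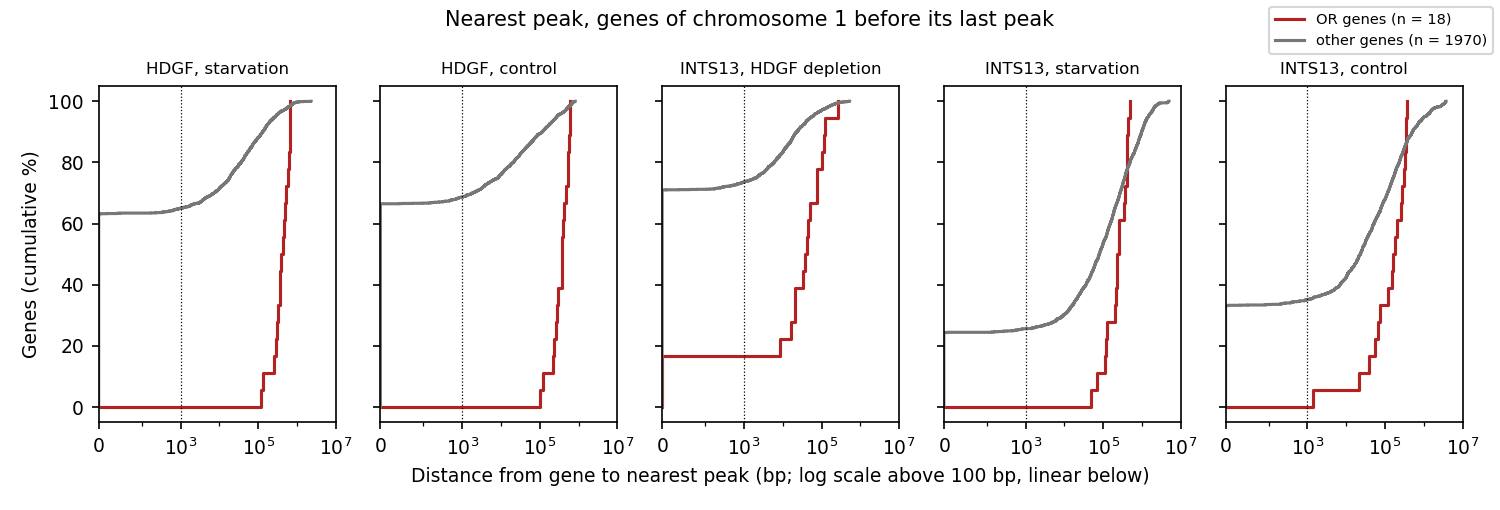
Cumulative share (%) of the 18 OR genes before the last peak (red) and of the 1970 other genes there (grey) by distance in bp to the nearest peak, one panel per list, on an axis that is linear below 100 bp and logarithmic above; the dotted line marks 1 kb. In both HDGF lists each of the 18 OR genes lies at least 99.0 kb from a peak, while most other genes are at 0.

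The first cluster held 1 peak in each list and no called gene. This peak lay about 120 kb from OR4F5, between OR4F5 and the other 2 genes, and was found at nearly the same place in all 5 lists. Its fold was 3.52 in HDGF starvation, 3.38 in HDGF control, 5.20 in INTS13 after HDGF depletion, 3.13 in INTS13 starvation and 2.70 in INTS13 control, and folds of different lists are not on a common scale. OR4F5, OR4F29 and OR4F16 belong to a family with near-identical copies near chromosome ends, so short reads there can match several places, and how such reads were treated is not given in the sources used here. Of the 16 other genes within 500 kb of the cluster, 14 had a window peak in HDGF starvation, 5 in HDGF control, 5 in INTS13 after HDGF depletion, 5 in INTS13 starvation and 1 in INTS13 control.

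OR promoters were poor in G and C. The 51 with a sequence had a median GC content of 38.3% and a median of 1 CpG, against 62.0% and 21 CpG in the 1680 other promoters of chromosome 1 before the last peak. The 261 OR promoters of other chromosomes were alike, with a median GC content of 37.7%. OR2L13 was the only one of the 51 above 50%, and the other 50 promoters held at most 6 CpG. Of the 51, 15 lie before the last peak and the rest in the empty stretch. None of the 15 overlapped a peak in any list, which allows up to 20.0%, against 16.8% of the other promoters in HDGF starvation, 8.99% in HDGF control, 16.1% in INTS13 after HDGF depletion, 9.46% in INTS13 starvation and 5.54% in INTS13 control. The limit is above each of these shares, so a difference at promoters was not detectable with 15 genes. OR2L13 lies past the last peak, so its GC-rich promoter gives no contrast here.

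**Figure D5:**
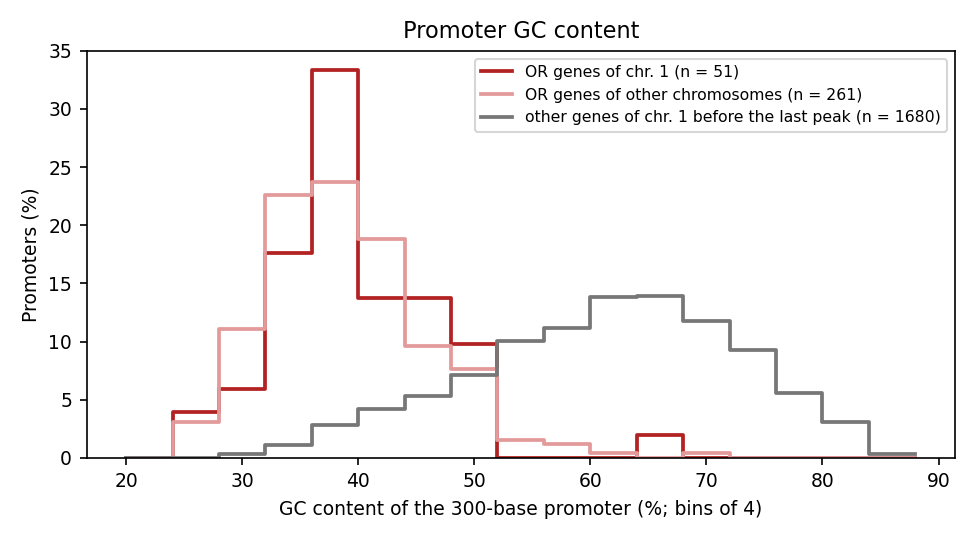
Share of promoters (%) by GC content of the 300-base promoter (%, in bins of 4) for the 51 OR promoters of chromosome 1, the 261 of other chromosomes and the 1680 other promoters of chromosome 1 before the last peak. The medians are 38.3%, 37.7% and 62.0% in that order, and OR2L13 is the single chromosome 1 OR promoter above 50%.

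Other genes with promoters poor in GC also had lower shares with a window peak, though not clearly in INTS13 control. They were not matched for length. The cutoff was 38.3%, the median of all 51 OR promoters, while the 15 before the last peak had a median of 41.3%. The promoters of OR6P1, OR6N1 and OR6N2, at 46.7%, 44.7% and 49.3%, were above the cutoff. These other genes are thus not matched in GC to the OR genes they are set against. Of the 55 with a GC content at or below the cutoff, 30.9% had a window peak in HDGF starvation (exact 95% interval 19.1 to 44.8%) and 50.9% in HDGF control (37.1 to 64.6%). For INTS13 the shares were 60% after HDGF depletion (45.9 to 73.0%), 12.7% in starvation (5.27 to 24.5%) and 29.1% in control (17.6 to 42.9%). All other genes before the last peak had 65.0%, 68.7%, 73.6%, 25.6% and 35.1% in the same order of lists. The share of 35.1% lies inside the interval for INTS13 control. The 15 OR genes before the last peak with a promoter sequence had 0, 0, 3, 0 and 0. Of the 21 such other genes that were also at most 20 kb long, 9.52% had a window peak in HDGF starvation, 42.9% in HDGF control, 38.1% in INTS13 after HDGF depletion, 0% in INTS13 starvation and 9.52% in INTS13 control. Of the 4 lists in which the OR genes had 0, HDGF control was the only one where the interval of this smaller group, 21.8 to 66.0%, lay above 20.0%, the limit for 15 genes. The exact 95% upper bound for 0 of 15 is 21.8%, where that interval begins, so none of these 4 lists gave a clear difference.

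Short sequence motifs linked to OR promoters were counted on both strands, with overlaps allowed. The EBF core CCCNNGGG was in 13.7% of the 51 OR promoters of chromosome 1, 6.90% of the OR promoters of other chromosomes and 21.6% of all 15843 promoters. The homeodomain core TAATTA was in 25.5%, 22.2% and 3.34% of the same groups. The TATA box letters TATAAA were in 43.1%, 33.3% and 9.63%. Of the promoters printed above, that of OR6N1 held the EBF core and that of OR10T2 the TATA letters, and those of OR6P1, OR6N2 and OR2L13 held none of the 3 motifs. The AT-rich motifs were more frequent and the GC-rich one less frequent than in all promoters, along with the low GC content, and a match shows letters and not a bound site.

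OR genes of other chromosomes were counted too. Of 326, 4 had one in HDGF starvation (1.23%), 1 in HDGF control (0.307%), 18 in INTS13 after HDGF depletion (5.52%), 2 in INTS13 starvation (0.613%) and 2 in INTS13 control (0.613%). Among all protein-coding genes other than the 61, the shares were 39.9%, 47.9%, 49.0%, 11.3% and 12.6% in the same order. The OR genes of other chromosomes had a median length of only 1.72 kb, and they were not matched for length. Chromosome 11 has the largest number, 168, of which 1, 0, 3, 1 and 1 had a window peak, against 40.8%, 43.8%, 42.7%, 3.81% and 3.37% of the other genes of chromosome 11, which are also longer, with a median of 18.2 kb against 1.10 kb. For both INTS13 lists without depletion the share of all genes differed widely by chromosome: 12852 of the 31233 peaks of INTS13 control lay on chromosome 1. Of OR genes, 0 had a window peak in HDGF control on both chromosomes.

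Genes that act with the receptors had window peaks at shares near or below those of all genes. Of 24 olfactory signalling genes, most of them on other chromosomes, 9 had one in HDGF starvation (37.5%), 8 in HDGF control (33.3%), 11 in INTS13 after HDGF depletion (45.8%), 0 in INTS13 starvation, which allows up to 12.5%, and 1 in INTS13 control (4.17%). In 14 of the 24 a window peak was found in at least 1 list, and the other 10 had none in any list. GNAL and OMP, a marker of mature olfactory neurons, were among these 10 and were named after their values were seen. The 4 with the highest −log10 q are described next. LDB1, an adaptor of LIM-homeodomain factors that is widely expressed, had 9 peaks in HDGF starvation, 6 in HDGF control, 6 in INTS13 after HDGF depletion, 0 in INTS13 starvation and 1 in INTS13 control. GNG13, a G protein gamma subunit gene, had 2, 0, 0, 0 and 0 in the same order. GNB1, a G protein beta subunit gene, had 5, 19, 8, 0 and 0, and REEP1, which helps receptors reach the cell surface, had 1, 1, 4, 0 and 0. These genes are longer than OR genes, with a median of 58.5 kb, and were not matched for length.

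Other tissue-restricted gene clusters of chromosome 1 were set beside the OR genes. Of 38 epidermal differentiation genes, 2, 0, 9, 1 and 1 had a window peak in HDGF starvation, HDGF control, INTS13 HDGF depletion, INTS13 starvation and INTS13 control. Of 18 Fc receptor-like, PYHIN and CD1 genes, 3, 2, 10, 2 and 2 did. Some of these 18 lie within or beside the second OR cluster and were also counted among its neighbours above. Of 22 PRAMEF genes, a family expressed mainly in testis with many near-identical copies, 0 did in every list. In INTS13 after HDGF depletion the epidermal genes had 23.7% (exact 95% interval 11.4 to 40.2%), against 16.7% of the 18 OR genes before the last peak. The lists differ in gene length, with medians of 7.12 kb for those 18 OR genes, 1.58 kb for the epidermal genes and 5.37 kb for the PRAMEF genes.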

How the data were processed

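ChIP-seq of HDGF and INTS13 was analysed from the authors' 5 deposited peak lists, 1 per ChIP group of 2 labelled replicates, and the 6 input samples were not analysed here. The submitters' processing notes name hg38 as the build and list MACS2, Bowtie, Trimmomatic, Picard and FastQC. Versions, settings, the handling of the replicates and the use of the inputs are not given there; deposited peak names carry the value 0.05. A peak in the deposited files has a score, a fold at its summit over background, a −log10 p, a −log10 q and the position of the summit, all set by the authors. Their values were compared only among peaks of the same list.

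Reads at a summit and the background per list were derived from the deposited fold and −log10 p, which obey a Poisson law with 1 mean for each list in 600 of 601 distinct pairs, to within 0.01 in −log10 p. The background is the only measure of depth used here. It was 9.84 reads in HDGF starvation, 6.69 in HDGF control, 4.20 in INTS13 after HDGF depletion, 15.2 in INTS13 starvation and 6.40 in INTS13 control, before a scaling to 7.41 that the values of both starvation lists imply. Peaks on the main chromosomes numbered 68138, 106674, 105994, 15639 and 31233 in the same order.

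Genes and promoters came from RefSeq tables of GRCh38.p14, the assembly that hg38 denotes, and 171 genes on unplaced or patch sequences were left out. The scripts that count peaks per gene were tested on simulated data. Shares have exact (Clopper-Pearson) 95% intervals, a share of 0 has a limit of 3 counts of the total, and averages over length classes (bounds of 1, 2, 5, 10, 20 and 50 kb) have normal-approximation intervals. Python 3.11.15, pandas 2.3.3 and SciPy 1.17.1 were used. Named OR genes are those with a window peak, those with a nearest peak 500 to 1500 bp from the gene, the longest and the shortest, cluster ends, and those the printed promoters required; OR4F29 was named after its values were seen. The members and comparison lists were chosen with earlier results of these data known. Alternatives changed the window, the list thresholds and lengths, the gene lengths and the other genes compared.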

Additional observations from a re-analysis of the deposited data

How the results depend on the processing

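The 0 counts of OR genes in both HDGF lists and in INTS13 starvation were the same under every alternative run, but no alternative could have changed them. The nearest peak to an OR gene was 120 kb away in HDGF starvation, 99.0 kb in HDGF control and 49.2 kb in INTS13 starvation. The widest window reached 2500 bp. Windows of 2500 bp gave 1 OR gene in INTS13 control (OR10T2). INTS13 after HDGF depletion fell to 0 OR genes with summits within 1 kb of an end, with lists of equal length and with genes of at most 5 kb, a length that none of the 3 called genes has. Of 64 recomputed counts of OR genes 4 moved, but the 64 include those fixed 0 counts. Of 45 recomputed length-matched shares of other genes 22 moved. These shares, in percent and in the order HDGF starvation, HDGF control, INTS13 depletion, INTS13 starvation and INTS13 control, were 39.4, 35.8, 38.1, 11.7 and 14.1 with summits within 1 kb of an end; 28.9, 31.6, 30.0, 10.1 and 13.3 with genes of at most 5 kb; and 57.5, 58.4, 65.2, 20.7 and 27.9 with other genes of the long arm. With lists of equal length they were 27.5 in HDGF starvation, 25.9 in HDGF control, 23 in INTS13 depletion and 12.3 in INTS13 control. Gene bodies alone gave 46.4 in HDGF control and 49.3 in INTS13 depletion, and 2500 bp gave 58.7 in HDGF control. The restriction to genes before the last peak and the GC classes were chosen after seeing the data. Leaving out OR genes with near-identical proteins was not run. No paired analysis was possible because each group has a single peak list with no values per replicate, and for the same reason no replicate could be left out. The counts rest on 18 OR genes before the last peak, and the cause of the empty stretch beyond it was not tested.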
